A study of Gallus gallus with 6 samples.

Results

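The genes described here encode the proteins of the ribosome, the particle that translates messenger RNA into protein. Members were the rows of the deposited gene table whose pathway annotation names the ribosome and that held at least 10 counts in at least 3 of 6 libraries. Of 116 such rows among 17623 rows in the table, 115 met this minimum. They comprised 73 cytosolic members (symbols beginning RPL or RPS) and 40 mitochondrial members (MRPL or MRPS), while 2 rows belonged to neither class. Rows whose symbol did not give a class, such as FAU, were assigned by their description.

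A cytosolic ribosome has a small subunit, which reads the message, and a large subunit, which joins amino acids and passes the new chain out through a tunnel. Its proteins are needed in near equal amounts, and in vertebrates their mRNAs begin with a pyrimidine-rich tract through which growth signals adjust their translation together. Mitochondria hold a ribosome of their own, whose proteins are encoded in the nucleus, made in the cytosol and imported, and which makes a few subunits of the respiratory chain. In the intestine, where the epithelium is renewed continually from dividing crypt cells, protein synthesis is known to be rapid.

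Messenger RNA of the ileum, the end segment of the small intestine, was profiled in Taiping chickens aged 2 months. Control birds ate a corn and soybean diet, and FOS birds ate the same diet with fructooligosaccharide, a chain of fructose units broken down by intestinal microbes, dosed in the water (1 mL per litre). Each group had 3 libraries. Whether each library is a different bird is not stated in the labels, and the p-values below measure the spread between libraries, part of which may be technical. Total deposited counts ranged from 14668289 to 18106651 per library. CPM stands for a count scaled to library size, and FPKM for the authors' value scaled to library size and transcript length.

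All birds are labelled male, and in birds the W chromosome is carried by females. Counts of HINTW, a W-linked gene, were 2438 (control 1), 2804 (control 3), 2339 (FOS 1) and 1974 (FOS 3). In control 2 it held 3 counts and in FOS 2 it held 1. Thus 4 libraries, 2 in each group, held W-linked transcripts against their label. Control 2 and FOS 2 therefore stand apart below for members on the sex chromosomes. Summed markers of enterocytes, all 6 detected, stood at 10193 to 12466 CPM in control, against 15361 to 17913 CPM in FOS. The largest part of that sum in each library was ANPEP, a brush border peptidase, whose groups overlapped. It stood at 6232 to 8626 CPM in control and 8468 to 11734 CPM in FOS. In FOS 1 it gave 8468 of 17913 CPM, and SI gave a further 5216 CPM. Among the 6 markers only SI and APOA4 had every FOS library above every control library. The 4 markers of exocrine pancreas, a neighbouring tissue, summed to at most 0.116 CPM in any library, with CEL at 0 in all 6.

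Transcripts for the cytosolic ribosome were far more abundant per length than those for the mitochondrial ribosome. The median of the mean FPKM over 6 libraries was 618 across cytosolic members and 28.0 across mitochondrial members, against 11.1 across the 13807 genes tested. The quartiles of the cytosolic members were 335 and 913 FPKM. At 100 FPKM or more stood 70 of 73 cytosolic and 2 of 40 mitochondrial members. Only 4 cytosolic members, RPS27L, RPL22L1, RPS21 and FAU, lay below the highest mitochondrial member. Cytosolic members together took 4.16%, 4.12% and 4.43% of all counts in control 1 to 3, against 3.67%, 4.78% and 4.01% in FOS 1 to 3. FOS 1 had the lowest share and FOS 2 the highest, and the groups overlapped. Mitochondrial members took 0.160%, 0.158% and 0.155% of counts in control 1 to 3, against 0.173%, 0.173% and 0.158% in FOS 1 to 3. The summed cytosolic FPKM was 33.9, 34.1 and 37.0 times the mitochondrial sum in control 1 to 3, against 27.8, 35.1 and 33.1 times it in FOS 1 to 3, lowest in FOS 1.

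**Figure D1:**
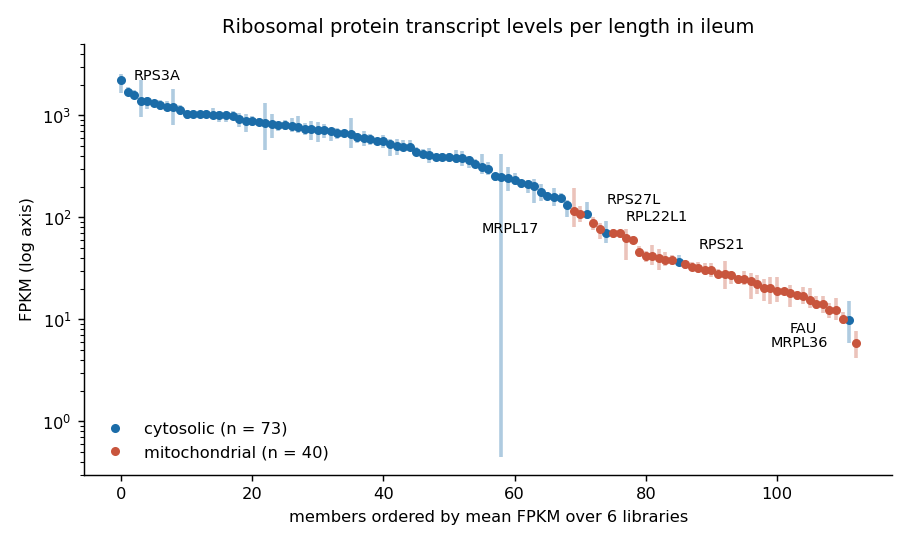
Level of each of the 73 cytosolic (blue) and 40 mitochondrial (red) members as FPKM on a log axis, ordered from highest to lowest. Points are means over 6 libraries and vertical lines run from the lowest to the highest library. The longest line, from 0.45 to 420 FPKM, belongs to the W-linked copy of RPL17. Nearly all cytosolic members lie above nearly all mitochondrial members.

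The most abundant member per length was RPS3A (ENSGALG00000010077), a small subunit protein. Its level was 2153, 2164 and 2521 FPKM in control 1 to 3, against 1639, 2492 and 2360 FPKM in FOS 1 to 3. FOS 1 was lowest, and the groups overlapped. Next in mean level came RPS10 of the small subunit at 1704 FPKM, RPL13 of the large subunit at 1592 FPKM and RPS6, the small subunit protein phosphorylated by the S6 kinases, at 1390 FPKM. Laminin receptor protein RPSA, listed in the table as RPSAP58, averaged 1214 FPKM. At the bottom of the class, FAU (ENSGALG00000035506), which encodes a ubiquitin-like domain fused to a small subunit protein, averaged 9.89 FPKM. Its libraries held 28 to 66 counts. RPS21, of the small subunit, averaged 36.7 FPKM. Reads of these genes may be shared with copies elsewhere in the genome, so levels far from those of partner proteins are uncertain. FPKM also depends on the transcript length used for each row. In control RPS21 averaged 84.6 CPM and 34.3 FPKM, whereas RPL38 of the large subunit averaged 74.6 CPM and 209 FPKM.

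Genes whose products work side by side differed in level per length. In the stalk of the large subunit, where elongation factors dock, the base protein RPLP0 averaged 879 FPKM, RPLP1 1390 FPKM and RPLP2 252 FPKM. RPLP1 stood at 1.65, 1.53 and 1.47 times RPLP0 in control 1 to 3, against 2.17, 1.53 and 1.29 times in FOS 1 to 3. The highest and the lowest ratio were both FOS libraries. RPL5 and RPL11, which bind 5S ribosomal RNA and, when unassembled, the p53 regulator MDM2, averaged 810 and 210 FPKM. Without scaling to length, RPL5 and RPL11 averaged 1055 and 381 CPM in control. RPL3 and RPL4, proteins near the catalytic centre and the exit tunnel of the large subunit, averaged 1034 and 493 FPKM. RPL10A of the L1 stalk averaged 496 FPKM and RPS14 of the small subunit 419 FPKM. RPS27A, whose product is a small subunit protein fused to ubiquitin, averaged 732 FPKM.

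Paralogs differed in how they stood to their partners. RPL26L1 averaged 561 FPKM, above RPL26, which lacks the ribosome annotation and averaged 70.2 FPKM. Reads may be split between these near copies, so the gap in level is uncertain. RPL22L1, which can take the place of the RNA-binding protein RPL22, stood at 0.191, 0.240 and 0.176 times the FPKM of RPL22 in control 1 to 3. In FOS 1 to 3 it stood at 0.295, 0.198 and 0.18 times. RPS27L, a paralog of RPS27 that is a p53 target in human cells, stood at 0.177, 0.232 and 0.170 times RPS27 in control and at 0.259, 0.182 and 0.246 times in FOS. The groups overlapped for both ratios, and FOS 1 was highest in both. Without scaling to length, RPS27L and RPS27 averaged 228 and 225 CPM in control, and 272 and 228 CPM in FOS. The low FPKM ratio of RPS27L to RPS27 thus depends on the transcript length used for each row. RPL3L, a paralog of RPL3 known from striated muscle, was the row left out by the count minimum. It held 5, 2 and 4 counts in control 1 to 3, against 2, 0 and 0 counts in FOS 1 to 3. The W-linked copy of RPL17 met the minimum through 4 libraries, with 4183 to 5683 counts in each. It held 8 counts in control 2 and 5 in FOS 2.

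Within the mitochondrial class, MRPL17 led with a mean of 116 FPKM, followed by MRPL24 at 109, MRPL9 at 88.7 and MRPS16 at 77.3 FPKM. Lowest were MRPL22 at 12.5 FPKM, MRPS18A at 12.4, MRPL32 at 10.02 and MRPL36 at 5.91 FPKM. MRPL36 is a locus assembled from reads and named by hand. Its length and counts, and with them its FPKM and fold change, depend on that assembly. MRPL12, which forms the factor-binding stalk, averaged 34.6 FPKM, and MRPS12 of the decoding site averaged 20.2 FPKM. MRPL3 of the large subunit stood at 32.5 FPKM and MRPS7 of the small subunit at 24.6 FPKM. MRPS18C, a paralog of MRPS18A, stood at 18.8 FPKM. The rows of neither class were RSL24D1, a large subunit assembly factor with a mean of 9.35 FPKM, and the assembled locus MSTRG.12771 at 1.07 FPKM.

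The order of levels was stable between libraries. As a description, Spearman's rho between libraries ran from 0.955 to 0.990 over the 73 cytosolic members and from 0.927 to 0.975 over the 40 mitochondrial members, in 15 pairs of libraries that share gene lengths and processing. The SD of log2 CPM over 6 libraries had a median of 0.14 for cytosolic and 0.19 for mitochondrial members, against 0.26 over all genes tested. These SDs were not compared at matched levels, and the median FPKM was 618, 28.0 and 11.1 in the same order. RPL5 was the steadiest, at 1053, 1050 and 1063 CPM in control 1 to 3, against 965, 1075 and 1053 CPM in FOS 1 to 3, an SD of 0.056. RPL6 and RPS15, of the large and small subunit, followed at 0.060 and 0.065. In the mitochondrial class MRPS11, MRPS18C and MRPL28 varied least, at 0.11, 0.12 and 0.12. Most variable were RPL17W, RPS23 and RPS6 among cytosolic members, with SDs of 4.69, 0.57 and 0.54, and MRPL17, MRPL2 and MRPL1 among mitochondrial members, with 0.54, 0.38 and 0.35. All of these but MRPL2 and MRPL1, both of the large subunit, lie on a sex chromosome. MRPL2 stood at 67.5, 70.4 and 77.5 CPM in control 1 to 3, against 95.2, 85.6 and 44.8 CPM in FOS 1 to 3, so that FOS held both the highest and the lowest library.

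Of 112 members that matched a chromosome in the RefSeq annotation of GRCg7b, 5 lay on Z and 1 on W. RPS6 (ENSGALG00000015082) stood at 957, 1778 and 998 CPM in control 1 to 3, against 920, 2064 and 895 CPM in FOS 1 to 3. RPL17 (ENSGALG00000036774), a large subunit protein at the exit tunnel, stood at 607, 1093 and 612 CPM in control 1 to 3, against 551, 1200 and 560 CPM in FOS 1 to 3. RPS23, a small subunit protein of the decoding site, stood at 359, 637 and 385 CPM in control, against 262, 727 and 332 CPM in FOS. In each of these genes, control 2 and FOS 2, the libraries without W-linked transcripts, were higher than all other libraries. RPL37 of the large subunit showed the same order with a smaller gap, at 301, 379 and 279 CPM in control, against 316, 455 and 307 CPM in FOS. MRPL17, the mitochondrial member on Z, stood at 70.1, 131 and 68.6 CPM in control, against 82.0, 176 and 88.7 CPM in FOS, again highest in control 2 and FOS 2.

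Against the mean log2 CPM of the other 2 libraries of its group, control 2 stood 1.82-fold higher for RPS6, 1.79-fold for RPL17, 1.71-fold for RPS23, 1.31-fold for RPL37 and 1.89-fold for MRPL17. For FOS 2 these folds were 2.28, 2.16, 2.47, 1.46 and 2.07. Cytosolic members outside Z and W also stood high in FOS 2. Their median log2 CPM against the gene's mean over 6 libraries was 0.19 there, -0.060 in FOS 1 and -0.043 in FOS 3. The part of this in the FOS 2 folds was not tested. The median over 552 tested genes on Z was 1.40-fold in control and 1.41-fold in FOS, and that over 11127 autosomal genes was 0.989-fold and 0.993-fold. On the log2 scale, the 107 members of both classes not placed on Z or W ranged from -0.55 to 0.56 in control and from -0.66 to 0.77 in FOS. RPS6 was thereby the cytosolic gene of rank 2 by FPKM in both control 2 and FOS 2, and of rank 9 to 13 in the other libraries. RPL17 ranked 3 and 4 there and 16 to 20 elsewhere. These are descriptions of single libraries, with no test.

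RPL17 has a copy on W (ENSGALG00000040263, described in the table as a 60S ribosomal protein L17 and called RPL17W here). RPL17W stood at 267, 0.462 and 264 CPM in control 1 to 3, against 282, 0.348 and 319 CPM in FOS 1 to 3. In control 2 and FOS 2 this was 8 and 5 counts. Where W-linked transcripts were present, RPL17W gave 30.6% and 30.1% of the counts of both copies in control 1 and control 3, and 33.9% and 36.3% in FOS 1 and FOS 3. The sum of both copies was 874, 1093 and 876 CPM in control 1 to 3, against 834, 1200 and 879 CPM in FOS 1 to 3, so that control 2 and FOS 2 remained highest with the W copy counted. The rule for reads that match both copies is not given in the sources used here, and the split between the copies is uncertain.

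**Figure D2:**
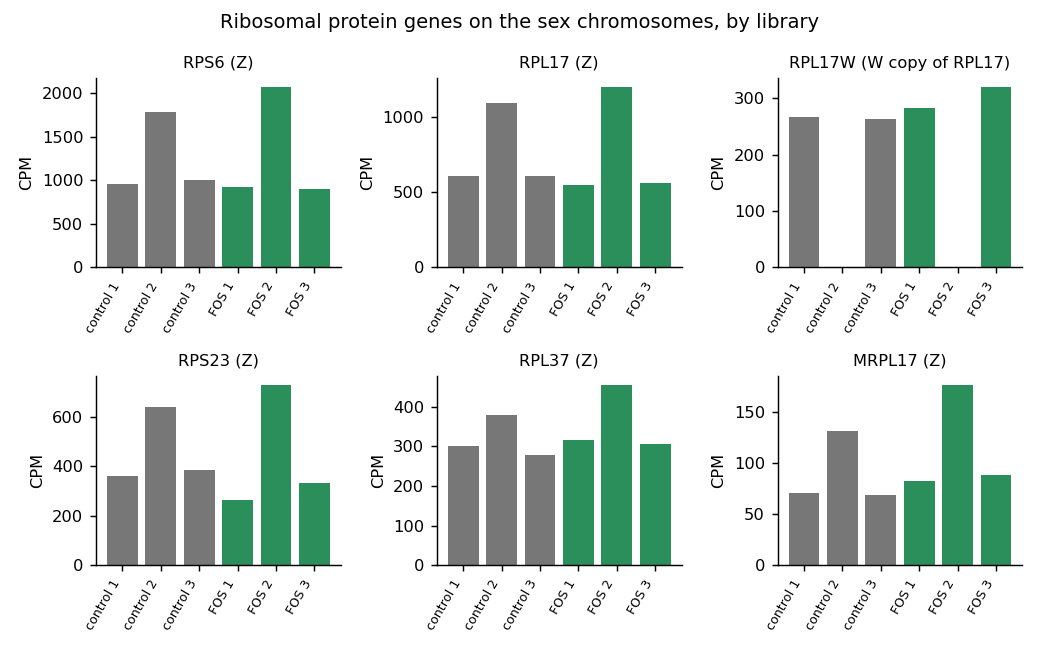
CPM of the 5 members on Z and of RPL17W in each library, with control libraries in grey and FOS libraries in green; bars are single libraries and start at 0. Control 2 and FOS 2 hold the tallest bars in the 5 genes on Z, such as 1778 and 2064 CPM for RPS6, and next to no RPL17W.

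Outside the sex chromosomes, members of a class varied together between libraries of the same group. For each member the log2 CPM of a library was set against the gene's mean over 6 libraries. The median over 68 cytosolic members was -0.054, -0.061 and 0.040 in control 1 to 3, against -0.060, 0.19 and -0.043 in FOS 1 to 3. FOS 2 was above the gene's own mean for 67 of 68 members and was the highest library for 57, while FOS 1 was the lowest for 26. Over 39 mitochondrial members the medians were -0.055, -0.038 and -0.093 in control 1 to 3, against 0.21, 0.052 and -0.032 in FOS 1 to 3. FOS 1 was above the mean for 32 of 39 and the highest library for 24. Thus FOS 2 stood high for the cytosolic class and FOS 1 for the mitochondrial class, and FOS 3 was near control in both.

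**Figure D3:**
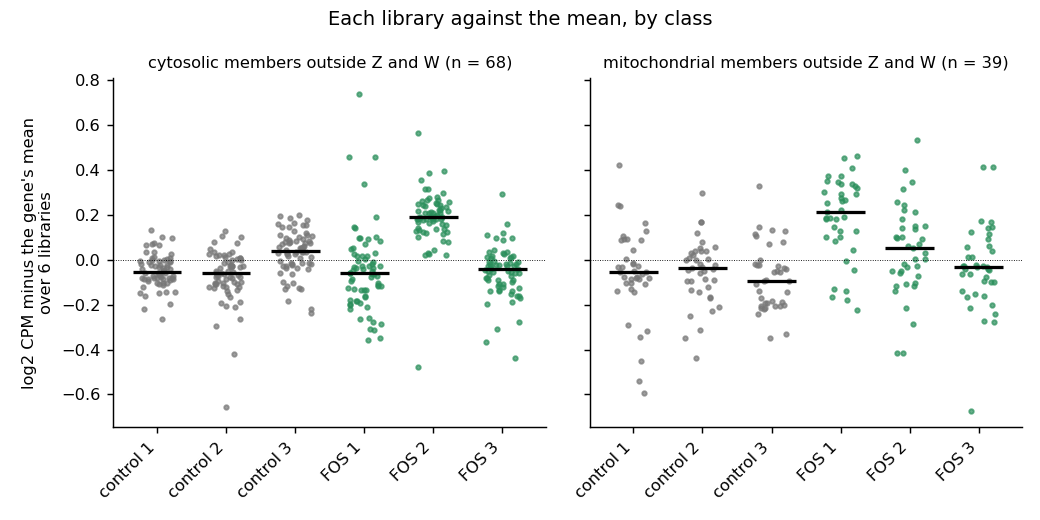
Log2 CPM of each library minus the gene's mean over 6 libraries, for 68 cytosolic (left) and 39 mitochondrial members (right) not placed on Z or W. Points are genes, black lines are medians, grey is control and green is FOS. The cytosolic median is highest in FOS 2 at 0.19, and the mitochondrial median is highest in FOS 1 at 0.21.

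Markers of cell types also differed between these libraries. FOS 1 had the highest summed markers of proliferating crypt cells, at 748 CPM against 309 to 621 CPM elsewhere, and each of the 6 was highest there. It had the lowest sum of smooth muscle markers, at 3845 CPM, where control ran from 5359 to 7680 CPM, and 5 of the 6 were lowest there, ACTA2 being the exception. It also had the highest sum for enterocytes, at 17913 CPM, and all of these markers but ANPEP were highest there. Markers of goblet and enteroendocrine cells summed to 3916 CPM in FOS 1 and to 1479 to 2260 CPM elsewhere. That sum was nearly all Muc2, at 2937 CPM, and CHGA, at 883 CPM, and none of the other 4 markers was highest in FOS 1. Markers of B and plasma cells summed to 1756 CPM in FOS 2 and to 893 to 1550 CPM in control. JCHAIN alone gave 1682 CPM of the FOS 2 sum, and none of the other 5 was highest in FOS 2. All 6 markers of each of these lists were detected. T cell markers summed to 864 to 959 CPM in control and to 699 to 833 CPM in FOS, with CD8A at 0 in 4 libraries and the other 5 detected in all. Matrix markers, 6 of 6, ran from 4508 to 4719 CPM in control and from 3280 to 4975 CPM in FOS, and 5 of 6 macrophage markers from 333 to 563 and from 299 to 506 CPM. The 2 of 4 red blood cell markers found ran from 112 to 162 CPM in control and from 140 to 169 CPM in FOS. ALAS2 gave most of this sum in each library. The globin gene HBBA stood at 7.99, 21.6 and 19.9 CPM in control 1 to 3, against 5.74, 48.1 and 31.7 CPM in FOS 1 to 3. The part of these markers in the class levels was not tested. In whole tissue, fewer cells of a type and less RNA per cell cannot be told apart.

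The comparison of FOS with control asked which ileal transcripts differ with the supplement. No member passed the test: with edgeR's quasi-likelihood test and Benjamini-Hochberg adjustment over 13807 genes, 0 of 115 members were called, against 3 genes higher in FOS (0.0217%) and 0 lower (0%) over all genes. DESeq2 and limma-voom also called 0 members of either class, while DESeq2 called 0.761% of all genes higher and 0.319% lower. At an unadjusted p under 0.05, 1 cytosolic and 4 mitochondrial members were higher in FOS and 0 were lower, where 5.14% of all genes were higher and 4.27% lower.

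Among the 73 cytosolic members the fitted log2 fold changes (FOS minus control) were small, with a median of 0.051 against 0.0072 over all genes tested and a range from -0.080 to 0.61. The estimate lay within 1 SE of 0 for 61 members. It was above 0 for 55 members (75.3%, against 51.1% of all genes), but for 30 without FOS 2, for 26 on log2(FPKM + 1) values and for 21 in the 4 libraries with W-linked transcripts. The median was then -0.032, -0.029 and -0.069. On FPKM values the median over all genes was also below 0, and lower than the cytosolic one. The 51.1% belongs to the main fit and not to these settings. Without FOS 1 the cytosolic median was 0.11, without FOS 3 0.11, without control 3 0.078 and without control 2 0.031. The 44 large subunit and 29 small subunit members had medians of 0.058 and 0.051. Every FOS library was above every control library for 2 members, RPS21 and RPL23A (8.58% of all genes), and below for 0 (7.84%).

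RPS21 (ENSGALG00000005338), a small subunit protein, stood at 83.5, 86.0 and 84.3 CPM in control 1 to 3, against 99.2, 110 and 94.8 CPM in FOS 1 to 3 (log2 fold change 0.26, SE 0.099, edgeR adjusted p = 0.508). The groups did not overlap, and the control libraries lay within a few CPM of each other. It was the cytosolic member with the smallest unadjusted p, at 0.0343, and it no longer had a p under 0.05 with the replicate number as a block. RPL23A, at the exit tunnel, stood at 596, 605 and 577 CPM in control, against 638, 758 and 627 CPM in FOS (log2 fold change 0.19, SE 0.12, edgeR adjusted p = 0.688), with FOS 2 well above the other libraries. RPL12, at the base of the stalk, stood at 554, 503 and 542 CPM in control, against 534, 762 and 631 CPM in FOS (0.27, SE 0.15, edgeR adjusted p = 0.631). There the groups overlapped through FOS 1. RPS27L stood at 211, 260 and 212 CPM in control, against 339, 251 and 226 CPM in FOS (0.26, SE 0.18, edgeR adjusted p = 0.701), with FOS 1 alone above the control range. FAU, of few counts, had the largest estimate at 0.61 (SE 0.35, edgeR adjusted p = 0.63), with 1.62 to 2.72 CPM in control, against 2.47 to 4.46 CPM in FOS. RPS26 at the mRNA exit, RPL29 of the large subunit and RPS16 of the small subunit, the other members among the 8 smallest p, had estimates of 0.23, 0.20 and 0.15 with overlapping groups. The edgeR adjusted p of the Z-linked members RPS6, RPL17, RPS23 and RPL37 was 0.98, 1.00, 0.976 and 0.826.

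Among the 40 mitochondrial members the median log2 fold change was 0.13, with a range from -0.094 to 0.40. Of these, 34 (85%) lay above 0, against 51.1% of all genes, and 23 lay within 1 SE of 0. The median stayed above 0 in all 21 alternative settings, from 0.050 on FPKM values to 0.21 without FOS 3, and without FOS 1 it was 0.10 with 24 of 40 members above 0. The 26 members with a large subunit symbol (MRPL) had a median of 0.14. The 14 with a small subunit symbol (MRPS) had one of 0.099. Every FOS library was above every control library for 5 members, MRPL24, MRPL10, MRPL34, MRPL33 and MRPL3, which compares with 8.58% of all genes, and below for 0. Summed enterocyte markers also did not overlap between the groups, though 4 of the 6 markers did singly. Summed T cell markers did not overlap either, at 864 to 959 CPM in control against 699 to 833 CPM in FOS. Singly, 2 of 5 tested T cell markers, CD3D and CD4, lay below control in every FOS library. The part of either marker list in this result was not tested.

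MRPL24 (ENSGALG00000030994), of the large subunit, stood at 82.0, 73.0 and 75.5 CPM in control 1 to 3, against 111, 101 and 84.4 CPM in FOS 1 to 3 (log2 fold change 0.36, SE 0.13, edgeR adjusted p = 0.483). All FOS libraries were above control, FOS 3 by the least. MRPL10 (ENSGALG00000014387), which anchors the stalk, stood at 42.1, 42.8 and 39.3 CPM in control, against 54.1, 48.7 and 46.7 CPM in FOS (0.27, SE 0.11, edgeR adjusted p = 0.515), again without overlap. MRPL34, of the large subunit, stood at 18.4, 24.7 and 23.8 CPM in control, against 32.8, 27.8 and 26.3 CPM in FOS (0.38, SE 0.16, edgeR adjusted p = 0.527). Here the gap between control 2 and FOS 3 was narrow. MRPS2, of the small subunit, had the highest estimate in the class and overlapping groups, at 39.0, 38.8 and 52.4 CPM in control, against 60.8, 63.1 and 48.5 CPM in FOS (0.40, SE 0.17, edgeR adjusted p = 0.521). These 4 were the mitochondrial members with an unadjusted p under 0.05. Their number was 2 with the replicate block, 2 with the W-linked transcripts as a covariate, 2 with DESeq2, 6 without FOS 3, 2 without FOS 1, 1 without control 1 or control 3, and 0 without FOS 2.

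**Figure D4:**
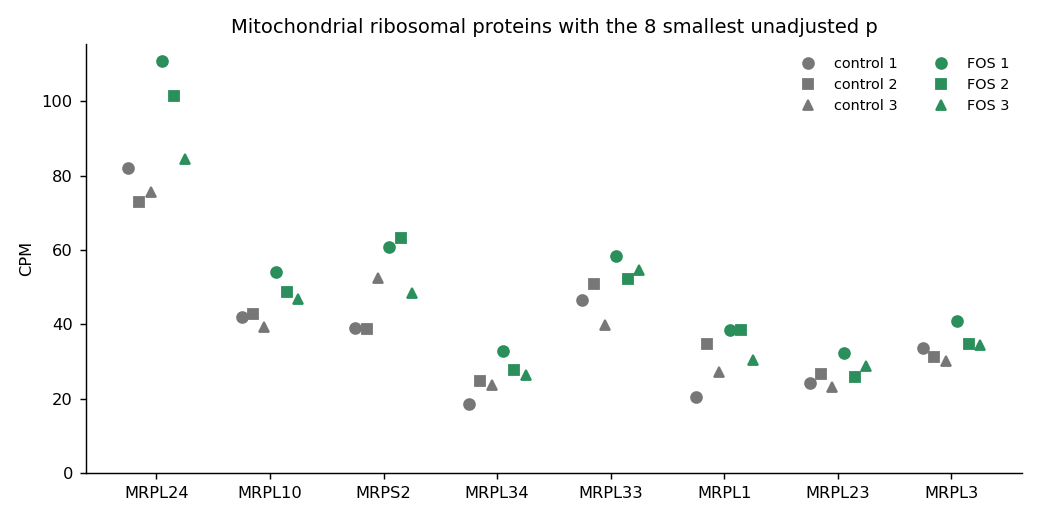
CPM in each library for the 8 mitochondrial members with the smallest unadjusted p, control in grey and FOS in green, with a symbol for each replicate number. FOS libraries lie above all control libraries for MRPL24, MRPL10, MRPL34, MRPL33 and MRPL3 and overlap with control for MRPS2, MRPL1 and MRPL23. None passed the test over all genes.

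MRPL33 stood at 46.5, 50.8 and 39.7 CPM in control, against 58.4, 52.2 and 54.5 CPM in FOS, and MRPL3 at 33.7, 31.3 and 30.2 CPM and at 40.8, 34.7 and 34.3 CPM. In both, which are large subunit proteins, the highest control and the lowest FOS library were close. MRPL1 and MRPL23, of the large subunit, had estimates of 0.38 (SE 0.21) and 0.23 (SE 0.13) with overlapping groups. The lowest estimates of the class were those of MRPL18, of the large subunit, at -0.094 (SE 0.13), and MRPL36 at -0.072 (SE 0.24), both within 1 SE of 0. MRPL12, the partner of MRPL10 in the stalk, stood at -0.041 (SE 0.14).

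The mitochondrial median exceeded the cytosolic median by 0.076 on the log2 scale. This difference was given no test, since the members of a class share their libraries. It was -0.0049 without FOS 1 and 0.17 without FOS 2. Without control 3 it was 0.043, and in the 4 libraries with W-linked transcripts 0.21.

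**Figure D5:**
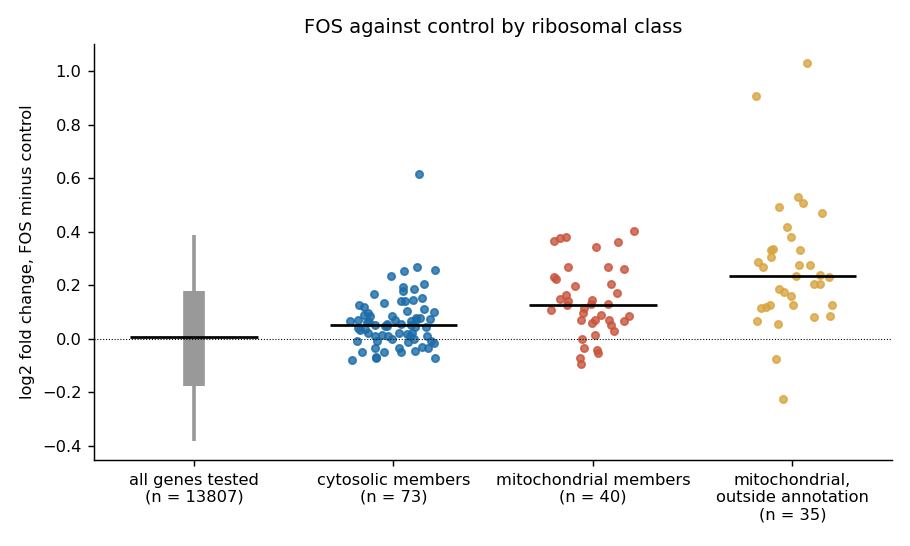
Log2 fold change, FOS minus control, of each cytosolic member, mitochondrial member and mitochondrial gene outside the pathway annotation (points), with the median as a black line. For all 13807 genes the thick bar spans the percentiles 25 to 75 (-0.18 to 0.18) and the thin bar the percentiles 10 to 90 (-0.38 to 0.39). Medians are 0.0072, 0.051, 0.13 and 0.23 from left to right. The cytosolic one is below 0 without FOS 2, on FPKM values and in the 4 libraries with W-linked transcripts. On FPKM values the median over all genes is also below 0, and lower than the cytosolic one.

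A further 35 rows carried mitochondrial ribosomal protein symbols but not the ribosome annotation, and were taken up after their values had been seen. With edgeR 0 of them were called, and DESeq2 called 1, MRPS28. Over all genes edgeR called 0.0217% higher and 0% lower, and DESeq2 0.761% higher and 0.319% lower. Their median log2 fold change was 0.23, with 33 above 0 and 2 below, and 7 had an unadjusted p under 0.05, all higher in FOS (6 with the replicate block, 4 without FOS 1 or FOS 2, 9 without FOS 3). Over all genes 51.1% lay above 0, and 5.14% were higher and 4.27% lower at that p. Every FOS library was above every control library for 10 and below for 1, MRPS22, against 8.58% and 7.84% of all genes. Since these rows were taken up with their values known, nothing is read from the counts. MRPS28 of the small subunit stood at 8.95, 11.4 and 15.4 CPM in control, against 25.9, 20.5 and 26.9 CPM in FOS (1.03, SE 0.22, edgeR adjusted p = 0.414, DESeq2 adjusted p = 0.011). MRPS24, also of the small subunit, stood at 5.29, 5.55 and 5.06 CPM in control, against 11.9, 10.8 and 7.19 CPM in FOS (0.91, SE 0.24, edgeR adjusted p = 0.441). MRPL44, related to RNase III enzymes, stood at 39.3, 35.9 and 38.3 CPM and at 62.0, 44.2 and 51.0 CPM. MRPL58, a peptidyl-tRNA hydrolase built into the large subunit, stood at 13.7, 14.9 and 11.6 CPM and at 21.1, 15.8 and 16.6 CPM. In these 4 genes no FOS library overlapped with control. MRPS22 stood at 32.9, 33.9 and 32.8 CPM in control, against 31.3, 28.7 and 25.4 CPM in FOS.

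Genes that build, regulate or work with ribosomes also gave 0 calls with edgeR in each of 4 lists. Counts over the lists are to be read against all genes. Of these, edgeR called 0.0217% higher and 0% lower, and 51.1% lay above 0. An unadjusted p under 0.05 was held by 5.14% that were higher in FOS and 4.27% that were lower. In each list 1 or 2 genes had such a p, a share near that over all genes or below it. Of 25 translation factors listed as having the pyrimidine tract, which was not checked in these chicken transcripts, 23 were tested. They had a median log2 fold change of 0.082, with 14 above 0 and 9 below and 1 with an unadjusted p under 0.05. That was the initiation factor subunit EIF3G, at 223, 225 and 254 CPM in control, against 267, 355 and 288 CPM in FOS (0.37, edgeR adjusted p = 0.502), followed by the subunits EIF3E (0.35) and EIF3H (0.25). FOS 2 was the highest library for all 3 subunits. They were picked by their p for FOS against control, so a FOS library on top partly follows from that choice. Of 55 ribosome biogenesis genes 50 were tested, with a median of 0.091, 35 above 0 and 15 below, and 2 with an unadjusted p under 0.05. These were BOP1, for large subunit rRNA processing, at 37.0, 33.6 and 36.6 CPM in control, against 42.7, 49.8 and 42.8 CPM in FOS (0.34, edgeR adjusted p = 0.483), and NIP7, for large subunit assembly (0.33). BYSL, for small subunit assembly, stood at 0.27.

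Of 38 genes for mitochondrial translation and ribosome assembly 30 were tested, with a median of 0.11, 19 above 0 and 11 below. Every FOS library was above every control library for 7 and below for 0, against 8.58% and 7.84% of all genes. These counts were 2 and 0 for the translation factors, 5 and 1 for ribosome biogenesis, and 1 and 3 for the regulators given next. They were given no test. MTERF3, known in mouse for a role in mitochondrial ribosome assembly, stood at 18.6, 25.4 and 18.0 CPM in control, against 31.1, 26.3 and 34.7 CPM in FOS (0.57, edgeR adjusted p = 0.479). FOS 2 lay just above control 2. RBFA, for small subunit maturation, had an estimate of 0.45 and an unadjusted p under 0.05, and the rRNA methyltransferase TFB1M one of 0.39. Of 28 regulators of growth and translation 24 were tested, with a median of -0.014, 11 above 0 and 13 below. MYC, a transcription factor that drives ribosome production, stood at 45.7, 50.6 and 46.3 CPM in control, against 50.4, 62.5 and 72.9 CPM in FOS (0.38, edgeR adjusted p = 0.509). Its groups overlapped through control 2 and FOS 1. The mTOR partner MLST8 (0.35) and the translation inhibitor EIF4EBP1 (0.29) followed.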

How the data were processed

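The authors deposited, per the file headers, a table with expected counts (estimated counts, not scaled, with 8.06% of values more than 1e-09 away from a whole number) and FPKM per gene and library, 1 column each for 6 libraries of total RNA. The submitters' processing notes list DESeq2, HISAT2, Bowtie2, StringTie 1.3.1 and fastp 0.18.0 without their roles. Build, counting step and strand setting: not given in the sources used here. Per the labels' protocols the kit was made for small RNA, yet long genes fill the table. A further 12 value columns, for 6 libraries outside the samples described, were not used. Groups and replicate numbers come from the sample titles.

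Counts were rounded, filtered with filterByExpr (13807 genes, all 115 members), scaled by TMM and tested with edgeR 4.0.16 (quasi-likelihood test, no covariates, Benjamini-Hochberg, threshold 0.05) in R 4.3.3. Replicates varied with a common biological coefficient of 24.6%. An SE is the estimate over the square root of its F. Levels between genes were compared by FPKM, and values of 1 gene between libraries by CPM on TMM-scaled sizes. The test was checked on simulated data. Most names missing in the table, and chromosomes, came from RefSeq gene IDs (GRCg7b, 13650 rows matched). The names MRPL36, HINTW and RPL17W were set by hand, and the row called MRPL36 matched no chromosome.

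Members and lists were chosen with earlier results of these data known, so no p over a list is given. Named were the 8 members of each class with the smallest p, the 4 highest and 4 lowest by mean FPKM, the 3 most and 3 least variable by SD of log2 CPM, fixed members of known role, and 3 genes per translation list. The values of 1 member are not reported here. MRPL18, MRPL36 by fold, MRPS28, MRPS24, MRPL44 and MRPS22 were named after their values were seen.

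Alternatives were RLE and upper-quartile factors, scaling without the members, no filter, a filter of 1 CPM in 3 libraries, DESeq2 1.42.0, limma 3.58.1 (voom, and log2(FPKM + 1) or log2(FPKM + 0.1)), the replicate number as a block, each library left out, a covariate for W-linked transcripts (over 10 CPM of HINTW), the 4 libraries that hold them alone, and assembled loci left out. Classes by symbol alone, and classes without members on Z and W, were added after seeing the data. Deviations from group means correlated at 0.24, 0.388 and 0.198 between same-numbered libraries of the groups (0.195, 0.223 and 0.134 without genes on Z and W), all over 0.1, so the titles' numbers met the bar for pairs. No label says what a number marks.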

Additional observations from a re-analysis of the deposited data

How the results depend on the processing

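The number of cytosolic and of mitochondrial members called was 0 in all 21 alternative settings. Over all genes, 3 were called higher in FOS, and 105 with DESeq2, 1 with limma-voom, 1 in only the libraries with W-linked transcripts, and 0 to 4 with 1 library left out (0 without control 1 or control 3, 1 without control 2). Called lower were 0, and 44 with DESeq2, 1 with no filter on low counts and 1 in only the libraries with W-linked transcripts. DESeq2 called 1 mitochondrial gene outside the annotation. The cytosolic median log2 fold change was 0.051, but -0.069 in only the libraries with W-linked transcripts and -0.032 to 0.11 with 1 library left out; on FPKM values it was -0.029 and -0.030 where all genes had -0.058 and -0.072. The cause was not tested. The mitochondrial median ranged from 0.050 to 0.21 and that of mitochondrial genes outside the annotation from 0.15 to 0.31. With the replicate block the calls over all genes stayed at 3 and 0, and the medians were 0.042 and 0.12. Each of the 16 members with the smallest p kept the sign of its fold change in 18 settings, with adjusted p from 0.341 to 0.955. They were picked by their p in the main fit on these same libraries. The kept signs largely follow from that choice and are no independent support. With 3 libraries per group, a member that was not called is not shown to be unchanged.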

Other observations

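RPL26, a large subunit protein annotated outside the ribosome pathway here and a near copy of RPL26L1, stood at 73.6, 94.1 and 90.3 CPM in control 1 to 3, against 109, 118 and 105 CPM in FOS 1 to 3, without overlap (log2 fold change 0.36, SE 0.12, edgeR adjusted p = 0.483). Reads may be split between the copies. RPL7L1, a paralog of RPL7, stood at 187, 213 and 176 CPM and at 218, 209 and 165 CPM (0.038). RPL26 was chosen after its values were seen.

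On the Z chromosome, 4 more genes with mitochondrial ribosomal protein symbols lay outside the pathway annotation. MRPL50 stood at 15.7, 31.6 and 13.6 CPM in control 1 to 3, against 21.7, 37.3 and 16.5 CPM in FOS 1 to 3. MRPS30 stood at 33.7, 55.7 and 30.0 CPM and at 31.2, 61.9 and 31.3 CPM. Control 2 and FOS 2 were the highest libraries of their groups in both genes, and also in MRPS27 and MRPS36, where FOS 2 stood 1.67-fold and 1.18-fold above the mean of FOS 1 and FOS 3.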
